A study of Mus musculus with 8 samples.

Results

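Vehicle-treated mouse epidermis was compared between the sexes over the autosomal genes of an Illumina bead array, a platform on which each gene is read by beads that carry a probe for it. The groups were 2 arrays from male mice given vehicle and 2 arrays from female mice given vehicle. All were wild-type B6129 mice 7 to 8 weeks old, shaved on the back 3 days before a single application of 200 µl of acetone, and the skin was taken 24 hours later. The other 4 arrays of the study came from 2 males and 2 females that received 2 µg of fluocinolone acetonide (FA), a synthetic glucocorticoid, in the same volume of acetone. They enter here as a second set of animals in which the same sex difference can be read, and through the error estimate. Shaving and acetone are shared by all groups, so no value here stands for untouched skin. Each gene was represented by its brightest probe over the 8 arrays. Genes on X and Y were left out, which kept 9138 of 9416 genes. The design gives 2 animals per condition, and each array was taken as 1 animal. All levels below are normalized log2 signals, and all differences are male minus female on that scale.

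The epidermis is a stratified epithelium in which basal keratinocytes divide, move outward as suprabasal cells and end as the cornified layer, a barrier of crosslinked proteins and lipids. It also holds hair follicles, sebaceous glands, Langerhans cells, T cells and melanocytes. Skin expresses androgen, estrogen and glucocorticoid receptors and enzymes that activate or inactivate these steroids, and male mouse skin has a thicker dermis than female skin.

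The sexes in the labels were checked on sex-linked genes. The Y-linked translation factor gene Eif2s3y had 9.97 and 9.90 on the male vehicle arrays, against 4.56 and 4.34 on the female vehicle arrays, where it was not detected, a difference of at least 32.7-fold. Xist, the RNA that coats the inactive X chromosome, had 4.65 and 4.52 on the male vehicle arrays, where it was not detected, against 7.26 and 7.11 on the female vehicle arrays, at least 4.66-fold lower in males. Of all probes on the array, 45.4% and 44.5% were detected on the male vehicle arrays, against 46.4% and 46.9% on the female vehicle arrays. Correlation across autosomal genes was 0.989 between the male vehicle arrays and 0.990 between the female vehicle arrays, against 0.981 to 0.985 between arrays of opposite sex. Of the FA arrays, female FA replicate 2 stood apart, with 32.4% of probes detected.

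Of the 9138 autosomal genes, 5 passed an adjusted p of 0.05 (0.0547%) in a limma fit of all 8 arrays with Benjamini-Hochberg adjustment, 2 higher and 3 lower in males. The 3 lower ones were Akr1c18, Akr1c19 and Hamp2, and the 2 higher ones were Serpina3n and Ccl4. All 5 differed at least 2-fold, and in each the male and female arrays did not overlap. The RefSeq promoter table listed 4 of the 5 genes. Their promoters, from 250 bases before the start to 50 after it (build GRCm38.p6), are shown because these genes carry the clearest autosomal differences between the sexes. Each is read 5′ to 3′ on the strand of its gene. Capitals mark AGAACA, the single-arm site of androgen, glucocorticoid and progesterone receptors, and TTCNNNGAA, the pattern bound by STAT factors, each searched on both strands. The first is in the promoters of Serpina3n and Hamp2, the second in those of Hamp2 and Akr1c19. The promoter of Akr1c18 holds neither.
Akr1c18, chr13:4150597-4150896, minus strand: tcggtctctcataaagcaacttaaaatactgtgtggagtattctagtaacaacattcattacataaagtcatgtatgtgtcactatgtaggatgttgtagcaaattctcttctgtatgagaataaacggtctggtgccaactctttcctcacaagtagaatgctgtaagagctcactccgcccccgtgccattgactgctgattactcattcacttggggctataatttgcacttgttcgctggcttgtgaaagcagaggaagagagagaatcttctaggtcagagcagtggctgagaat
Akr1c19, chr13:4233490-4233789, plus strand: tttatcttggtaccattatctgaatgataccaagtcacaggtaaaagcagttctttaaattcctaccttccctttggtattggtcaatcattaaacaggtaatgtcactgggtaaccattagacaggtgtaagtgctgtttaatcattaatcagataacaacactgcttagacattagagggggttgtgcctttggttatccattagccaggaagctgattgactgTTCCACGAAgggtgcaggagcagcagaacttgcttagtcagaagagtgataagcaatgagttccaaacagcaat
Hamp2, chr7:30924132-30924431, minus strand: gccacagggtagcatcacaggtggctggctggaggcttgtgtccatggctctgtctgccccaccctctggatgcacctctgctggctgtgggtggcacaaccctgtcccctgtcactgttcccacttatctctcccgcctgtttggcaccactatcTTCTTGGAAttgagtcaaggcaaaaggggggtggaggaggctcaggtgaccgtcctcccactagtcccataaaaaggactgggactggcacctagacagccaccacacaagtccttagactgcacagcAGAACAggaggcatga
Serpina3n, chr12:104406458-104406757, plus strand: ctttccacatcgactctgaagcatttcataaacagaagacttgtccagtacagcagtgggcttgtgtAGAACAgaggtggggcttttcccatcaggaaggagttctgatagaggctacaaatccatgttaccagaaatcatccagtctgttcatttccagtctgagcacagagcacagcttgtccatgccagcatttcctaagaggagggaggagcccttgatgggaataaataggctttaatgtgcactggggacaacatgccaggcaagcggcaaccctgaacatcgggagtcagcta

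Among 32851 promoters of the same length, 18.97% held AGAACA and 8.298% held TTCNNNGAA, so a match is common by letters alone. The full androgen and glucocorticoid receptor palindrome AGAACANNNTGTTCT, which joins 2 such sites head to head, was in 0.00913% of promoters, the estrogen receptor palindrome GGTCANNNTGACC in 0.0700% and the E-box CACGTG in 7.15%. None of these 3 patterns was in the windows of the 4 genes.

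Akr1c18 encodes the 20-alpha-hydroxysteroid dehydrogenase that inactivates progesterone. It had 5.72 and 6.18 in male vehicle epidermis, against 10.09 and 9.67 in female vehicle epidermis. Both male values lay far below both female values, though still above the detection limit. The difference was -3.93 ± 0.23 (SE of the 8-array fit, n = 2 arrays per group), 15.2-fold lower in males, with an adjusted p of 0.00162.

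Akr1c19, a paralog in the same aldo-keto reductase family, had 5.14 and 5.07 in male vehicle epidermis, against 8.141 and 8.004 in female vehicle epidermis. The male arrays were just above their floors of 4.95 and 4.99, the lowest signals of any detected probe on them. The difference was -2.97 ± 0.18, 7.82-fold lower in males (adjusted p = 0.00162). In the RefSeq gene order on chromosome 13, Akr1c19 was the measured gene next to Akr1c18. The next measured neighbours beyond the pair differed far less and did not pass. Akr1c12, of the same family and detected on 1 male vehicle array, had -0.34 ± 0.18 (adjusted p = 0.928), and Net1 on the other side had -0.18 ± 0.21 (adjusted p = 0.985). The female vehicle values of Akr1c12, 5.08 and 5.38, lay near the floor and left little room for a fall in males. Akr1e1, one gene beyond Akr1c12, had -0.45 ± 0.28 (adjusted p = 0.936). The Akr1c genes are similar in sequence, and how far a probe of one binds RNA of another was not tested.

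Hamp2 encodes hepcidin-2, a relative of the hormone that controls the export of iron from cells. It had 6.52 and 6.22 in male vehicle epidermis, against 9.88 and 10.28 in female vehicle epidermis. The difference was -3.71 ± 0.31, 13.1-fold lower in males (adjusted p = 0.0104). Its measured neighbours on chromosome 7 were Mag at 0.23 ± 0.19 (adjusted p = 0.967) and Usf2, a transcription factor gene, at 0.15 ± 0.25 (adjusted p = 0.999). In female vehicle epidermis Mag had 5.05 and 4.86 and Usf2 had 4.83 and 5.03, near the floors of 4.91 and 4.90. A fall in males could therefore not be seen in these neighbours.

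Serpina3n, an inhibitor of serine proteases that responds to glucocorticoids and inflammation, had 7.75 and 7.73 in male vehicle epidermis, against 5.63 and 5.04 in female vehicle epidermis. The difference was 2.403 ± 0.23, 5.29-fold higher in males (adjusted p = 0.0170). Its neighbour and paralog Serpina3b had 12.93 and 12.40 in males, against 12.15 and 11.69 in females, without overlap, at 0.74 ± 0.52 (adjusted p = 0.954). Ccl4, a chemokine of macrophages and T cells on chromosome 11, had 6.37 and 6.35 in male vehicle epidermis, against 4.79 and 4.45 in female vehicle epidermis, where it was not detected on either array. Against the female floor it was at least 2.74-fold higher in males (1.74 ± 0.19, adjusted p = 0.0450). Ccl4 was detected on both male vehicle arrays and on no other array. It met the filter of detection on 2 or more arrays only through the group where it was high. Ccl9, near Ccl4 in the same chemokine cluster, was not detected on either female vehicle array and was at least 2.27-fold higher in males, with an adjusted p of 0.195 with 8 arrays and 0.0222 with the 4 vehicle arrays alone. Like Ccl4, Ccl9 was detected on both male vehicle arrays and on no other array, so it met the filter only through them. Ccl6, between Ccl4 and Ccl9, had 0.16 ± 0.49 (adjusted p = 0.999). It was detected on 1 vehicle array of each sex, so its signal near the floor says little about a difference.

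**Figure D1:**
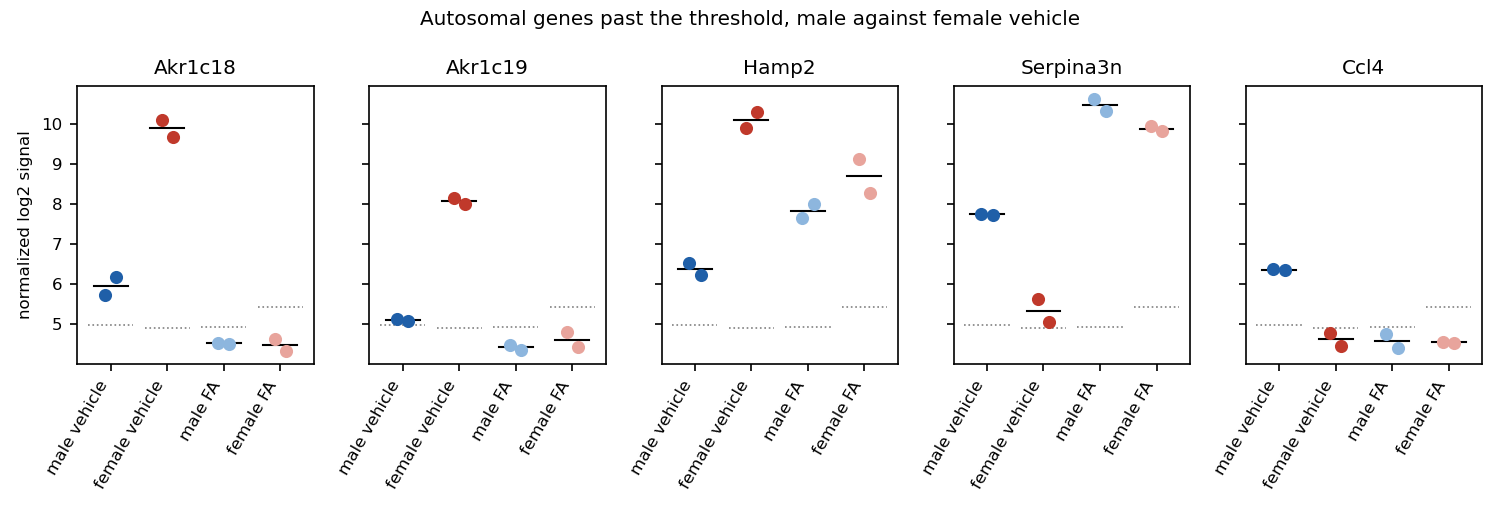
Normalized log2 signal of the 5 autosomal genes that passed, by array. Points are arrays, black lines group means, and dotted lines the mean floor of the arrays of a group. In vehicle the male arrays of Akr1c18, Akr1c19 and Hamp2 lie below the female arrays and those of Serpina3n and Ccl4 above them.

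In the animals given FA none of these 5 genes passed for the sex difference. Akr1c18 had 4.53 and 4.51 in male FA epidermis, against 4.62 and 4.33 in female FA epidermis, and it was not detected on any of these arrays. Akr1c19 was likewise not detected on any FA array. Hamp2 was detected on all 4, with 7.65 and 8.01 in male FA epidermis, against 9.12 and 8.27 in female FA epidermis, a difference of -0.87 ± 0.31 (adjusted p = 0.355). The male arrays stayed below the female ones there, by less than in vehicle. Serpina3n had 10.62 and 10.32 in male FA epidermis, against 9.94 and 9.80 in female FA epidermis (0.60 ± 0.23, adjusted p = 0.378). Ccl4 was not detected on any FA array. A test of the difference between the 2 sex contrasts passed for 2 of 9138 autosomal genes (0.0219%), Akr1c18 at -3.98 ± 0.32 (adjusted p = 0.0352) and Akr1c19 at -2.78 ± 0.26 (adjusted p = 0.0451). Both calls were lost with the replicate number as a block and when any 1 vehicle or male FA array was left out. It did not pass for Hamp2 (adjusted p = 0.328), Ccl4 (0.336) or Serpina3n (0.497).

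The number of genes that passed depended on which arrays set the error. Genes next to the threshold were Dab2, an endocytic adaptor gene not detected on either female vehicle array and at least 2.35-fold higher in males, and Mgarp, a mitochondrial protein gene, at 1.40 ± 0.17, both with an adjusted p of 0.0501, and the matrix protease gene Mmp3 at 2.397 ± 0.30 (0.0609). Of the next genes by p, Rarres2, the gene of the chemoattractant chemerin, was at least 2.31-fold higher in males, and Gpnmb, a glycoprotein of melanocytes and macrophages, had 1.16 ± 0.17 (adjusted p = 0.148 and 0.154). On the lower side Stat4, a cytokine signalling factor, and Haus3, a spindle protein gene, were not detected on either male vehicle array. They were at least 1.37-fold and at least 1.4997-fold lower in males (adjusted p = 0.229 and 0.241). Both genes were detected on the female vehicle arrays and on no other array, so they met the detection filter only through the group where they were high. Amn, a partner of cubilin, had -0.96 ± 0.18 (adjusted p = 0.240), the peptide gene Guca2a -0.90 ± 0.17 (0.259) and Pitpnm2, a lipid transfer protein gene, -0.86 ± 0.16 (0.242). None of these 7 passed with 8 arrays. At an unadjusted p under 0.05 there were 523 genes, 302 higher and 221 lower in males. Genes that do not differ pass this cut-off at a rate of 0.05, so the 523 are not a count of genes that differ. The spread between partner arrays, as a median SD over genes, was 0.169 in vehicle and 0.227 with FA. A fit of the 4 vehicle arrays alone, with a median SE of 0.186 against 0.221 in the 8-array fit, called 83 genes (0.908%), 72 higher and 11 lower in males. All 5 genes named above were among them. Leaving 1 vehicle array out of this smaller fit, a setting chosen after seeing the data, gave 208 genes without the first male array, 156 without the second, 14 without the first female array and 33 without the second. The same 5 genes passed in each of these 4 fits, in which the lone array of a sex is assumed to vary like the pair of the other sex, the only source of the spread. In the 8-array fit, leaving out the first male vehicle array gave 4 genes, the second male or the first female vehicle array gave 1 each, and the second female vehicle array gave 2. Leaving out either male FA array gave 3, and either female FA array 43. Akr1c18 passed in each of these fits, with an adjusted p of at most 0.0490. Akr1c19 was lost without the second male (adjusted p = 0.0589) or the first female vehicle array (0.0506). Hamp2, Serpina3n and Ccl4 were lost when any 1 vehicle array was left out, and Serpina3n and Ccl4 also without either male FA array. Ccl4 was also lost with the replicate number as a block, without background correction and with values set to the floor. In what follows, a gene that passed only in the fit of the 4 vehicle arrays is said to pass in the vehicle-only fit. Since these genes missed the threshold with all 8 arrays, their adjusted p from both fits is given where they are described in full.

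**Figure D2:**
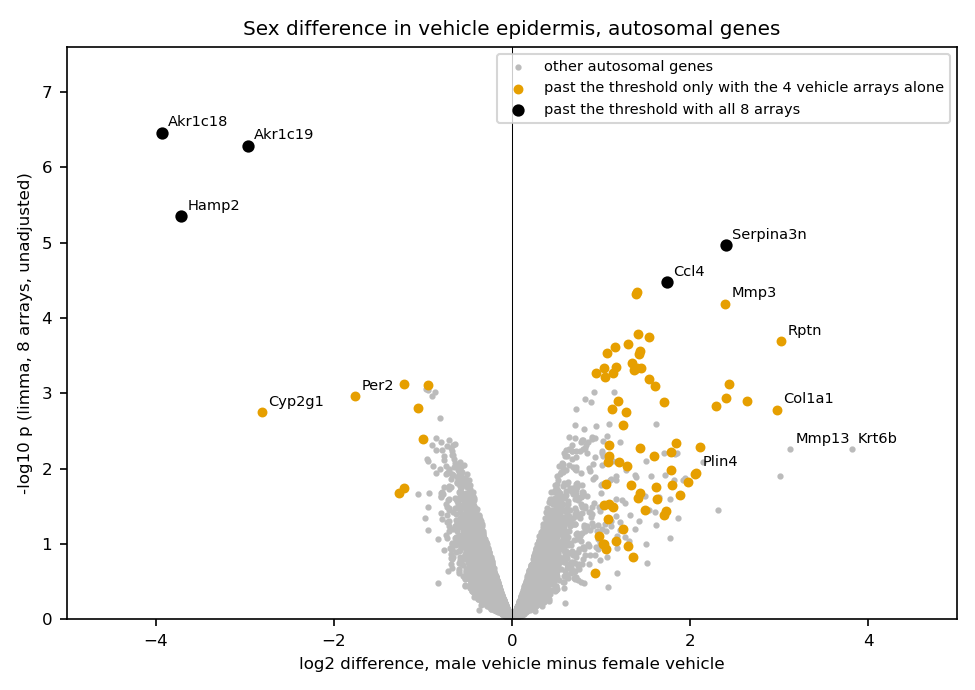
Difference between male and female vehicle epidermis (horizontal, log2) against -log10 of the unadjusted limma p of the 8-array fit (vertical) for 9138 autosomal genes. Black points passed with all 8 arrays (5 genes), orange points passed only in the fit of the 4 vehicle arrays, and large differences lie mostly on the male-higher side.

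Across all autosomal genes the median difference was -0.02 and the median size of the difference 0.167, with 95% of genes within 0.595. A 2-fold difference or more was seen in 135 genes higher and 11 lower in males. Both male arrays lay above both female arrays in 1788 genes (19.6%) and below them in 1998 genes (21.9%), and the gene lists below are read against these shares. The median changed sign in 9 of the 31 lists when 1 vehicle array was left out, and in 11 with median scaling, so medians near 0 have no settled direction. A mixed tissue sample does not separate fewer cells of a type from less RNA per cell.

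The cytochrome P450 Cyp2g1, best known from the olfactory mucosa, was the fourth large decrease in the vehicle-only fit. It had 7.79 and 8.82 in male vehicle epidermis, against 11.06 and 11.15 in female vehicle epidermis. The difference was -2.80, with an SE of 0.30 and an adjusted p of 0.00479 in the vehicle-only fit and an SE of 0.59 and an adjusted p of 0.313 with all 8 arrays. Cyp2g1 was the only one of 35 drug and xenobiotic metabolizing enzymes to pass in the vehicle-only fit. None passed with 8 arrays, 11 of the 35 lay higher and 8 lower without overlap, and their median was 0.07. Adh7, an alcohol and retinol dehydrogenase, had 0.60 ± 0.16 (adjusted p = 0.535), and Cyp3a13 had -0.59 ± 0.19 (adjusted p = 0.690).

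Of 16 genes for sex steroid and glucocorticoid receptors and metabolism, Akr1c18 alone passed, in both fits. The median was -0.14, with 3 higher and 6 lower without overlap. The glucocorticoid-induced co-chaperone gene Fkbp5 had 6.55 and 7.12 in male vehicle epidermis, against 7.41 and 7.28 in female vehicle epidermis (-0.51 ± 0.23, adjusted p = 0.878). Hsd11b1, which regenerates active glucocorticoid, had 0.83 ± 0.50 (adjusted p = 0.936). The estrogen receptor gene Esr1 had -0.22 ± 0.21 (adjusted p = 0.970), and the glucocorticoid receptor probe for Nr3c1 was not detected on either female vehicle array. Of 12 androgen-responsive genes, none passed with 8 arrays. In the vehicle-only fit 1 passed, Elovl3, a fatty acid elongase of the sebaceous gland and hair follicle. It had 8.15 and 8.50 in male vehicle epidermis, against 6.85 and 6.91 in female vehicle epidermis, a difference of 1.45 (vehicle-only adjusted p = 0.0119, 8-array 0.732). The list median was 0.09, with 5 higher and 3 lower without overlap. Among 8 estrogen and progesterone responsive genes the median was 0.45, with 4 higher and 1 lower without overlap, and Lpl, lipoprotein lipase, passed in the vehicle-only fit. This median was 0.21 without the first male vehicle array.

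Of 15 clock genes, 2 passed as lower in males in the vehicle-only fit, and none passed with 8 arrays. The clock is a feedback loop in which Per and Cry proteins repress their own transcription. Per2 had 7.87 and 6.99 in male vehicle epidermis, against 9.14 and 9.25 in female vehicle epidermis, a difference of -1.76 (vehicle-only adjusted p = 0.0215, 8-array 0.259). Per3 had 5.76 and 5.59 in males, against 6.89 and 6.88 in females, a difference of -1.21 (vehicle-only adjusted p = 0.0165, 8-array 0.229). Both genes had their male arrays below their female arrays. Cry2 had -0.85 ± 0.25 (adjusted p = 0.631), and Dbp, a clock output gene, had -0.79 ± 0.28 (adjusted p = 0.732), both without overlap. Nfil3, which represses Dbp targets, had 0.71 ± 0.25 (adjusted p = 0.732) with the male arrays above. Arntl, the activator of the loop, had 0.18 ± 0.22, Nr1d1 had -0.05 ± 0.19 and Per1 had -0.33 ± 0.26, and none of these 3 passed. The list median was -0.28 (7 lower and 4 higher without overlap), and it was -0.13 to -0.30 with 1 vehicle array left out. The labels give no time of day for the samples. In FA, Per2 had 7.66 and 7.46 in males, against 8.62 and 9.37 in females, the same direction without overlap (-1.44 ± 0.34, adjusted p = 0.209).

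Keratinocyte genes of the resting layers differed little. Of 11 basal markers none passed in either fit, and the median was -0.05. The basal keratins Krt5 and Krt15 had -0.51 ± 0.21 (adjusted p = 0.825) and -0.50 ± 0.16 (0.661), both lower in males without overlap. Of 9 suprabasal markers with a median of -0.01, Krt2, a keratin of the upper layers, passed in the vehicle-only fit. It had 8.22 and 7.78 in male vehicle epidermis, against 6.39 and 6.54 in female vehicle epidermis, a difference of 1.54 (vehicle-only adjusted p = 0.0119, 8-array 0.143). Krt1 and Krt10, the main suprabasal keratin pair, had 0.30 ± 0.22 and -0.01 ± 0.17, and neither passed.

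Of 28 cornified envelope and barrier genes, none passed with 8 arrays and 2 passed as higher in the vehicle-only fit. Their median was 0.13, and 10 were higher and 3 lower without overlap. With each array scaled to a common median the list's median was -0.13, beside a shift of all genes to -0.30. Rptn, the S100-fused protein repetin, had 8.01 and 9.18 in male vehicle epidermis, against 5.89 and 5.25 in female vehicle epidermis. The Rptn difference was 3.03 (vehicle-only adjusted p = 0.00781, 8-array 0.146). Sprr1a, a crosslinked precursor of the envelope, had 8.97 and 9.20 in males, against 7.64 and 7.85 in females, a difference of 1.34 (vehicle-only adjusted p = 0.0146, 8-array 0.190). Its relatives Sprr4 at 1.86 ± 0.49, Sprr2d at 1.22 ± 0.52 and Sprr1b at 1.77 ± 0.89 lay higher in males without overlap and did not pass. The abundant envelope genes Lor (0.14 ± 0.15) and Ivl (-0.11 ± 0.23) did not pass. Probes for the Sprr genes may share sequence with near-identical family members.

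Activated keratinocyte and wound genes had a median of 0.73 over 21 genes, with 15 higher and none lower without overlap. None passed with 8 arrays, and in the vehicle-only fit Mmp3 alone passed. Mmp3 had 7.77 and 8.59 in male vehicle epidermis, against 6.002 and 5.564 in female vehicle epidermis. The Mmp3 difference was 2.397 (vehicle-only adjusted p = 0.00779, 8-array 0.0609). The male arrays differed from each other in this list. Its mean log2 signal was 7.81 and 8.98 on the male vehicle arrays, against 7.26 and 7.10 on the female vehicle arrays. Krt6b, a keratin of wounded epidermis, had 8.04 and 10.87 in males, against 6.10 and 5.16 in females, a difference of 3.82 ± 0.98 (adjusted p = 0.525). The collagenase gene Mmp13 had 6.57 and 9.41 in males, against 5.06 and 4.67 in females (at least 8.05-fold higher in males, since 1 female array was below detection, adjusted p = 0.525). Krt17 was even between partners, with 14.36 and 14.40 in males, against 13.60 and 13.71 in females (0.73 ± 0.15, adjusted p = 0.299). The list median was 1.58 without male vehicle replicate 1 and 0.47 without male vehicle replicate 2. All animals were shaved, and how the skin of each healed before sampling is not given in the labels.

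Some serpin and Wfdc genes, picked after their values were seen, passed as higher in males in the vehicle-only fit and none with 8 arrays. Serpinb6c (2.41), Serpinb11 (1.70), Serpinb12 (1.41) and Serpinb6d are serpins of chromosomes 1 and 13. Serpinb6d was not detected on either female vehicle array and was at least 1.79-fold higher in males. Serpinb12 had 10.56 and 10.90 in male vehicle epidermis, against 9.43 and 9.21 in female vehicle epidermis (vehicle-only adjusted p = 0.0148, 8-array 0.190). Wfdc12 (2.44) and Wfdc3 (1.78) are whey acidic protein domain genes on chromosome 2. The beta-defensin gene Defb6 had 12.10 and 11.73 in males, against 10.64 and 10.92 in females, a difference of 1.14 (vehicle-only adjusted p = 0.0369, 8-array 0.197). Other members of these families did not pass in either fit, such as Serpinb2 at 0.26 ± 0.18, Serpinb8 at -0.21 (adjusted p = 0.999) and Wfdc21 at 0.05 ± 0.19.

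Langerhans and dendritic cell markers had a median of -0.12 over 9 genes, and dendritic epidermal T cell markers -0.01 over 12, with none past the threshold in either fit. Without male vehicle replicate 2 these medians were 0.11 and 0.33. Neutrophil, macrophage and mast cell markers had a median of 0.51 over 10 genes, with 7 higher and none lower without overlap. Of the 10, 4 were detected on all 4 vehicle arrays, with a median of 1.06, and 1 on none. The median of the 10 was 0.33 with values set to the floor, 0.24 without background correction and 0.42 with median scaling. None of the 10 passed with 8 arrays. Lysozyme, Lyz2, passed in the vehicle-only fit, with 7.45 and 7.24 in males, against 5.97 and 5.51 in females (1.61, vehicle-only adjusted p = 0.0119, 8-array 0.230). The complement genes C1qa, C1qb and C1qc, which mark macrophages, were not detected on either female array, and S100a8, a neutrophil gene, had 0.26 ± 0.92. Of 15 cytokines and chemokines, Ccl4 passed in both fits, and the median was 0.12. Cxcl1, a neutrophil chemoattractant, had 5.82 and 6.93 in males, against 5.21 and 4.75 in females (1.40 ± 0.43, adjusted p = 0.639). Ccl21a and Ccl21b, lymphatic chemokines with near-identical copies, passed as higher in males in the vehicle-only fit. Ccl21a was detected on 1 female vehicle array and Ccl21b on neither, and they were at least 2.51-fold and at least 1.69-fold higher in males. Ccl21b was detected on both male vehicle arrays and on no other array, so it met the detection filter only through them. Interferon-stimulated genes had a median of 0.29 over 18, none of which passed. The antiviral gene Rsad2 had the smallest p, was not detected on either female array and was at least 1.70-fold higher in males (8-array adjusted p = 0.242, vehicle-only 0.0512). This median was 0.06 without male vehicle replicate 2, and it was -0.04 with median scaling, beside a shift of all genes to -0.30.

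Lipid genes were mixed. Of 19 sebaceous gland and lipogenic genes, Defb6 and Elovl3 passed in the vehicle-only fit and none with 8 arrays, with a median of 0.12. Elovl6 and Acsbg1, which lengthen and activate fatty acids, had -0.62 ± 0.29 and -0.64 ± 0.16, lower in males without overlap, and neither passed. Elovl5 had 0.79 ± 0.37, higher in males without overlap. Among 15 cholesterol synthesis genes, Hsd17b7 passed in the vehicle-only fit. It had 11.77 and 11.73 in males, against 10.86 and 10.53 in females (1.06, vehicle-only adjusted p = 0.0361, 8-array 0.690). Lss, lanosterol synthase, had 0.88 ± 0.26 (adjusted p = 0.626). The cholesterol median of 0.25 was 0.06 without male vehicle replicate 2 and -0.04 with median scaling, beside the shift of all genes to -0.30. Barrier ceramide and lipoxygenase genes had a median of -0.02 over 17.

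Markers of tissue beneath the epidermis were read from 4 lists. All 14 dermal fibroblast markers lay higher in males without overlap, with a median of 1.35. None passed with 8 arrays, and 7 passed in the vehicle-only fit. The list's mean log2 signal was 8.26 and 7.37 on the male vehicle arrays, against 6.32 and 6.16 on the female vehicle arrays. Col1a1, the chain of type I collagen, had 9.51 and 7.68 in males, against 5.49 and 5.73 in females, a difference of 2.98 (vehicle-only adjusted p = 0.0222, 8-array 0.299). Col3a1 had 8.89 and 7.61 in males, against 6.10 and 5.81 in females, a difference of 2.29 (vehicle-only adjusted p = 0.0215, 8-array 0.290). Dcn, the proteoglycan decorin, had 10.89 and 9.99 in males, against 8.69 and 8.59 in females (1.80, vehicle-only adjusted p = 0.0201, 8-array 0.690). The fibroblast median was 1.04 without male vehicle replicate 1 and 1.78 without male vehicle replicate 2. Other genes of connective tissue passed in the vehicle-only fit beside this list, among them Ctsk (2.64), Prelp (1.98), Aebp1 (2.05), Serpinf1 (1.88), Fbln2 (1.43) and Eln (at least 1.49-fold, not detected in females), and these were picked after their values were seen.

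Skeletal muscle markers were all positive, 23 of 23, with a median of 1.08 and 14 higher without overlap. None passed with 8 arrays and 4 passed in the vehicle-only fit, namely Mylpf, Mb, Myl1 and Des. Mylpf, a fast myosin light chain, had 8.40 and 8.91 in males, against 6.81 and 7.30 in females (1.60, vehicle-only adjusted p = 0.0187, 8-array 0.535). Myl1 had 11.34 and 11.26 in males, against 9.08 and 10.12 in females (vehicle-only adjusted p = 0.0359, 8-array 0.814). The female arrays differed from each other in this list, whose mean log2 signal was 7.83 and 7.74 on the male vehicle arrays, against 6.18 and 7.38 on the female vehicle arrays. Tnnc2, a fast troponin, had 8.91 and 9.15 in males, against 6.62 and 9.07 in females, so that female vehicle replicate 2 lay among the male arrays. The muscle median was 0.38 without female vehicle replicate 1 and 1.70 without female vehicle replicate 2. Among 7 adipocyte markers, Plin4, a lipid droplet protein, had 7.86 and 8.04 in males, against 5.766 and 5.999 in females (2.07, vehicle-only adjusted p = 0.00184, 8-array 0.631), and Lpl had 1.84 (0.00781 and 0.518). The other 5 did not pass, and Lep and Lipe were each detected on at most 1 array per sex. Endothelial markers had a median of 0.08 over 6. Of the 83 genes of the vehicle-only fit, 13 are on the muscle, fibroblast or adipocyte lists, all of them among the 72 higher in males. These lists hold 23, 14 and 7 genes, and 0.908% of all 9138 autosomal genes passed in this fit. The lists were chosen with earlier results of these data known. The part that tissue other than epidermis has in any of the differences, those of the listed genes included, was not tested.

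**Figure D3:**
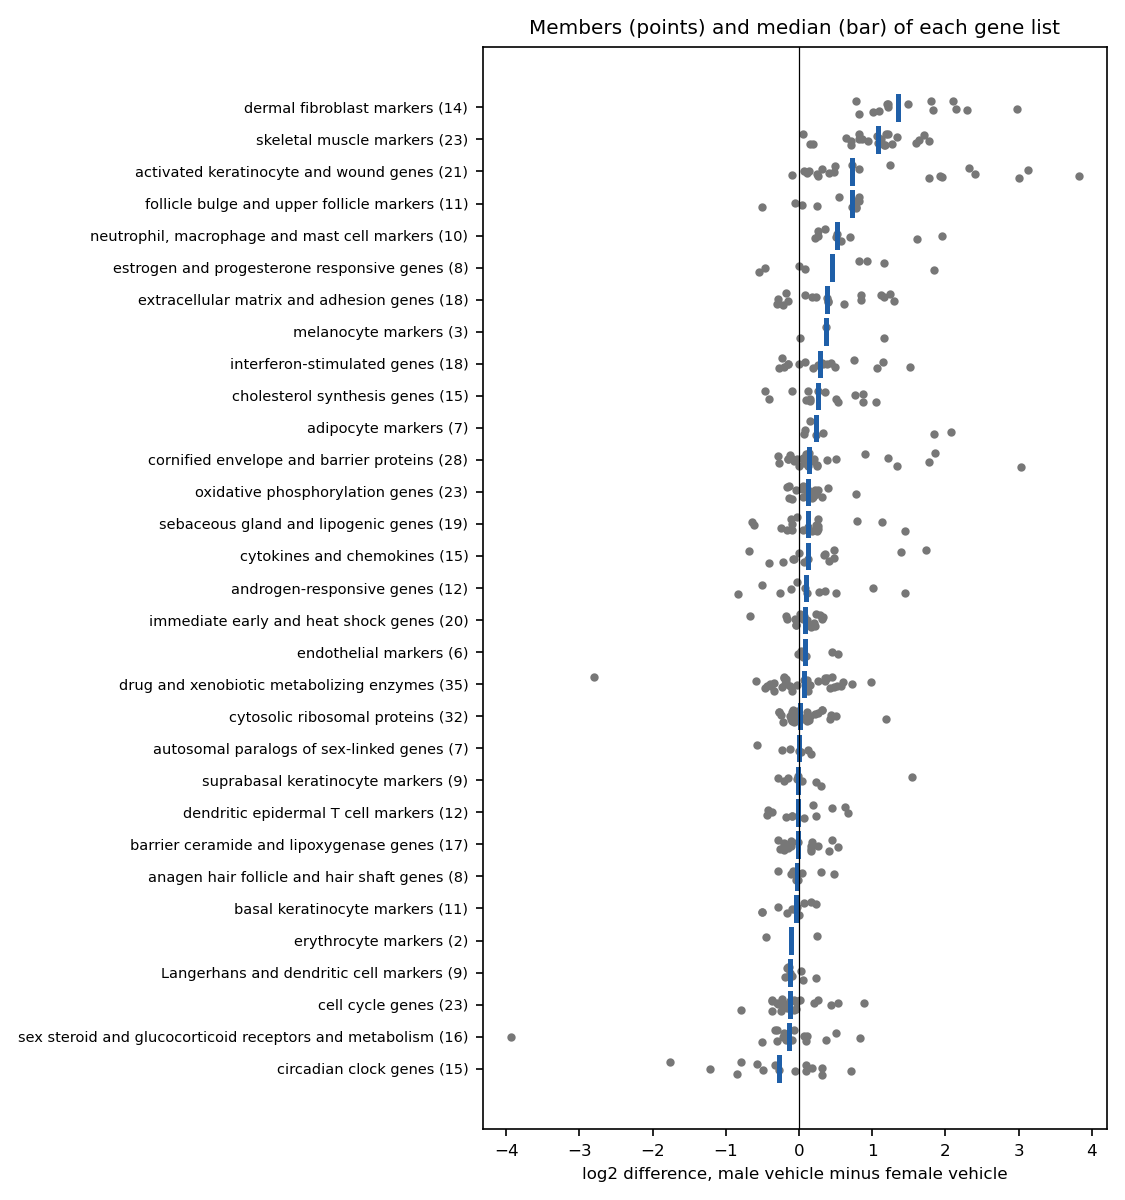
Difference between male and female vehicle epidermis (horizontal, log2) for the members of 31 gene lists. Each point is a gene, the blue bar is the median of the list, and the number of genes follows the name. Dermal fibroblast (1.35) and skeletal muscle (1.08) markers have the highest medians and circadian clock genes (-0.28) the lowest.

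Growth and housekeeping lists gave no call in either fit. Of 23 cell cycle genes with a median of -0.12, 9 were lower and 4 higher without overlap. Mcm2, a subunit of the replicative helicase, had 7.29 and 7.48 in males, against 8.13 and 8.24 in females (-0.80 ± 0.20, adjusted p = 0.518). Plk1, a mitotic kinase, had 0.88 ± 0.36 (adjusted p = 0.820). The medians were 0.08 for 20 immediate early and heat shock genes, 0.13 for 23 oxidative phosphorylation genes and 0.02 for 32 cytosolic ribosomal protein genes. The 7 autosomal paralogs of sex-linked genes had a median of 0.01. Of 11 follicle bulge and upper follicle markers with a median of 0.73, none passed, and the value was 0.29 without male vehicle replicate 1. It was 0.28 without background correction and 0.41 with median scaling, beside the shift of all genes to -0.30. Krt17, at 0.73, is on this list and on the activated keratinocyte list and is the middle value of both. The 8 anagen follicle and hair shaft genes had a median of -0.03, and 4 of them were not detected on any vehicle array.

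Partner arrays of the same sex were also compared. Among 7571 autosomal genes detected on both male vehicle arrays, 68 differed at least 2-fold between them, 31 higher on replicate 1. Among 7795 detected on both female vehicle arrays, 33 differed at least 2-fold, 8 higher on replicate 1. The widest gaps in males were Mmp13, Krt6b, Sprr1b, S100a8 and Stfa1, all higher on replicate 2. Pyy, a peptide hormone gene, went the other way, at 10.56 and 8.15. The widest gaps in females were Tnnc2, Myh4 and Pgam2, genes of muscle contraction and energy supply, all higher on replicate 2. The ribosomal protein gene Rpl7a had 11.43 and 9.58 there. These genes were picked for their gaps.

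The sex difference was then read in the FA animals, which share no array with the vehicle animals. Across autosomal genes the 2 sets of differences correlated at 0.298 (Pearson, across genes that are not independent). Female FA replicate 2, with 32.4% of probes detected and a floor of 5.88, stands apart in this set. Over all 9138 genes the sign was the same in 53.6%. Of the 83 genes of the vehicle-only fit, 70 had the same sign in FA, 64 of the 72 higher in males and 6 of the 11 lower. Both male FA arrays lay above both female FA arrays in 1813 autosomal genes (19.8%) and below them in 1999 (21.9%). Among the 72, the FA arrays lay apart in the same direction for 46 and in the opposite direction for 3. Among the 11, they lay apart in the same direction for 3 and in the opposite direction for 2. With FA, 17 autosomal genes passed in the 8-array fit (0.186%), all higher in males. Of these, 3 were among the 83 and none among the 5. The FA count was 0 when either male vehicle array was left out, 2 when either female vehicle array was, 1 and 0 for the first and second male FA array, and 1973 and 28 for the first and second female FA array. The median of the muscle list was 3.72 in FA beside 1.08 in vehicle. The fibroblast median was 1.01 in FA beside 1.35 in vehicle, and the activated keratinocyte median 0.15 beside 0.73. Myl1 had 5.26 in FA beside 1.70 in vehicle, Col1a1 2.02 beside 2.98, Rptn 0.87 beside 3.03, and Sprr1a -0.77 beside 1.34. For these 4 genes the difference between the 2 contrasts did not pass.

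**Figure D4:**
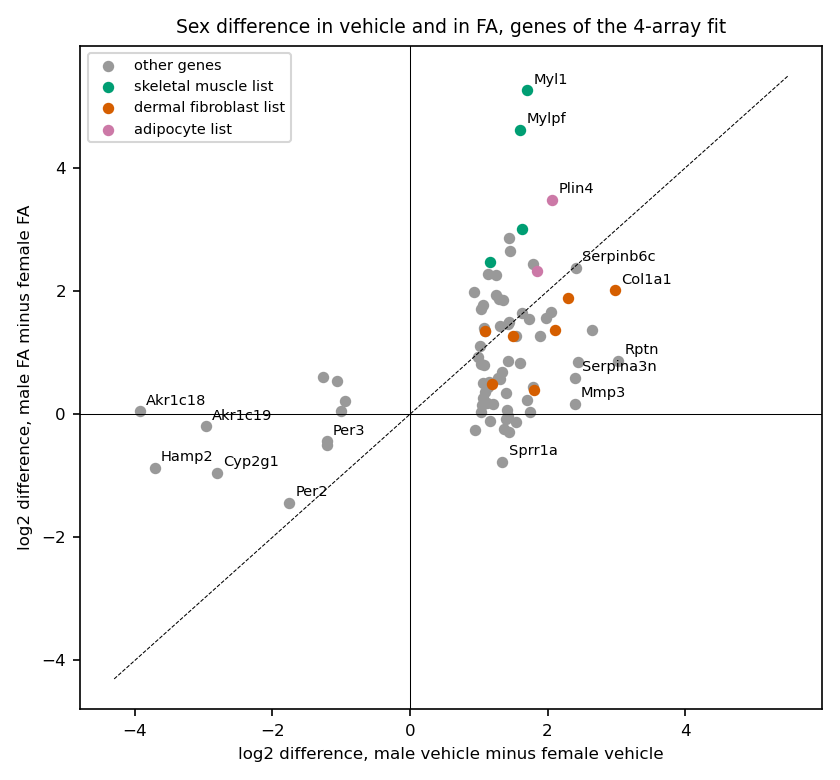
Male minus female difference in vehicle (horizontal, log2) against the same difference with FA (vertical, log2) for the 83 genes of the fit of the 4 vehicle arrays. The dashed line marks equal differences. Muscle genes such as Myl1 and Mylpf lie above the line, and Akr1c18 and Akr1c19 lie near 0 with FA.

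The brightest probes of vehicle epidermis were ranked by their mean log2 signal over the 4 vehicle arrays. The rank is of probe signals, which depend on probe affinity as well as RNA amount, so neighbouring ranks are not an order of transcript abundance. The 30 brightest carried 14.102% and 14.064% of the summed linear signal on the male vehicle arrays and 14.001% and 13.970% on the female ones. The sum runs over 1 probe for each of the 9138 autosomal genes. Quantile normalization makes these shares near equal by construction, so they do not compare the sexes. Krt14, the keratin of basal cells, led with 15.46 and 15.46 in males, against 15.46 and 15.13 in females. Next were loricrin, Lor, the main protein of the cornified envelope, with 15.40 and 15.40 in males, against 15.21 and 15.30 in females, and Krt10, the suprabasal keratin, with 15.30 and 15.30 in males, against 15.17 and 15.46 in females. Quantile normalization gives each rank the same value on every array, which is why values repeat.

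The late cornified envelope genes Lce1m (mean 15.21), Lce1c (14.85), Lce1a2 (14.51), Lce1b (14.42) and Lce1d (14.36) were 5 of the 30, and their probes may share sequence with near-identical copies. Dmkn (15.14) and Krtdap (14.64) encode secreted proteins of the suprabasal layers. Ribosomal protein genes were the most numerous group, 12 of the 30, led by Rplp1 (15.17), Rps20 (15.09) and Rpl41 (14.94). The others were Ly6g6c, the membrane-binding Anxa2, the lectin Lgals3, Itm2b, Actb, Hmgcs1, and Gm6548 and Ubb-ps, which the annotation names as a predicted gene and a pseudogene. Hmgcs1, which makes the precursor of the cholesterol pathway, had a mean of 14.37. The last of the 30 was Rpl5 (14.23), and the next probe below was the epidermal calmodulin-like gene Calm4 (14.19).

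None of the 30 passed in either fit. Their male minus female differences were at most 0.284 in size, with 7 higher and 4 lower without overlap. Quantile normalization holds the brightest probes to the same top values on every array, so it also limits the size of these differences. Lce1m had the widest gap, at -0.28 ± 0.15, with 15.13 and 15.01 in males, against 15.30 and 15.40 in females (adjusted p = 0.928). Lce1d went the other way with 14.51 and 14.46 in males, against 14.32 and 14.15 in females (adjusted p = 0.943). Of the 30, 29 were also among the 30 brightest of the male arrays and 28 among those of the female arrays. Unprocessed intensities of these probes ran between 15247 and 47889, and whether any is saturated is not recorded in the files.

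**Figure D5:**
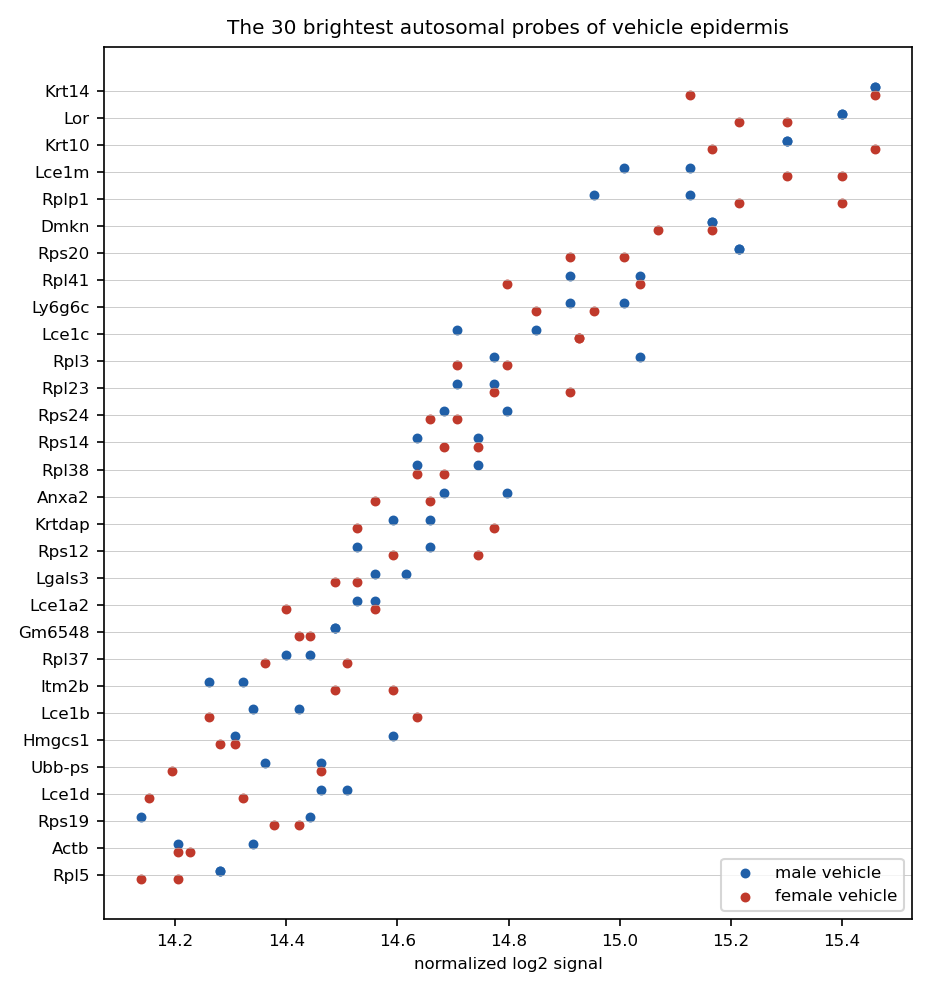
Normalized log2 signal (horizontal) of the 30 brightest autosomal probes of vehicle epidermis, in order of their mean over the 4 vehicle arrays. Points are arrays, blue male vehicle and red female vehicle. Values run between 14.14 and 15.46, and the sexes overlap for most probes.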

How the data were processed

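RNA from mouse epidermis was hybridised to 8 bead arrays. Per the file headers, the deposited unprocessed table pairs a probe intensity, without background correction, with a detection p-value from the scanner software, array by array. The deposited matrix holds log2 values of 13247 probes, and the submitters' processing notes name limma without a version. Running limma neqc (normexp, offset 16, quantile) on the deposited intensities gave the deposited log2 values to within 5.00e-09. A detection p under 0.05 in 2 or more arrays was what kept a probe in the matrix. A probe detected on the 2 arrays of a single group was therefore tested only because of its signal in that group.

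With R 4.3.3 and limma 3.58.1, 1 probe was taken for each symbol of the platform table (12476 probes with 1 symbol, 771 with none). Chromosomes came from a RefSeq table (GRCm38.p6) and left out 274 X and 4 Y genes. The gene A730008H23Rik, with no chromosome there, was kept. Group means of all 8 arrays were fitted in 1 model (lmFit and eBayes, 4 residual and 3.35 prior degrees of freedom), and the 4 vehicle arrays alone in another (2 and 7.03). Tests were two-sided, with p adjusted over 9416 genes. Errors after ± are standard errors of the 8-array fit. An "at least" fold was computed against each array's floor. Bead arrays have no read depth, and 2 arrays per group limit the precision. P-values measure the spread between these arrays, which may be partly technical. Replicate numbers did not pair the arrays (correlation of deviations 0.0631 between the vehicle groups, and -0.0334 to 0.235 over all 6 pairs of groups).

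Members and gene lists were chosen with earlier results of these data known, and so were the tests. The rule for naming took the genes that passed and did not overlap, filled to 10 per direction by smallest p, up to 4 members of each list by smallest p, and the 30 brightest probes. Not every list member it allows is named, and the other list members, neighbours and family members in the text were chosen after their values were seen. Motifs were searched on both strands in RefSeq promoters of 300 bases.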

Additional observations from a re-analysis of the deposited data

Results flagged for a closer look

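The sex difference of 2 genes differed between vehicle and FA by a limma test of the difference itself over all genes. The Akr1c18 difference in vehicle minus that in FA was -3.98 (adjusted p = 0.0352), with 5.72 and 6.18 in male vehicle epidermis, against 10.09 and 9.67 in female vehicle epidermis, and no detection on any FA array. The Akr1c19 value was -2.78 (adjusted p = 0.0451), with 5.14 and 5.07 in male vehicle epidermis, against 8.141 and 8.004 in female vehicle epidermis, and again no detection on any FA array. In FA both sexes lay under the floor, so the sex difference there is between undetected signals. Both calls were lost when any 1 of the male vehicle, female vehicle or male FA arrays was left out, and with the replicate number as a block. Groups of 2 arrays do not allow a search for single outlying arrays.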

How the results depend on the processing

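For male against female in vehicle, where 5 genes passed with all 8 arrays, the count was 83 with the 4 vehicle arrays alone, 22 with median scaling, 12 without background correction, 21 with array weights and 13 with a trended robust prior. It was 4 with the replicate number as a block, in genes detected on all 4 vehicle arrays and with values set to the floor, and 6 with the mean of all probes. Leaving out 1 array gave 1 to 43. With the vehicle arrays alone, added after seeing the data, it gave 208, 156, 14 and 33 without the first male, second male, first female and second female array. The block on the vehicle arrays alone, also added later, gave 87. With FA, where 17 passed, the count was 0 with the 4 FA arrays alone, 8 with the block, 173 with median scaling (172 higher and 1 lower) and 0 to 1973 with 1 array left out. For the difference between vehicle and FA, where 2 passed, it was 0 with the block, 41 with median scaling and 0 to 1099 with 1 array left out. Median scaling moved the median difference of all genes to -0.30 in vehicle and 0.33 in FA. The causes were not tested, apart from fewer arrays or genes by construction. No gene or count named here reversed its sign past the threshold under these settings. The block changed no other call among the 5 genes than that of Ccl4 (adjusted p = 0.0709). Of the 30 brightest probes, 24 to 30 were shared under each alternative. Genes under the floor have bounds only. The setting without a detection filter was not run, since the symbol table names the probes of the matrix alone.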
